A study of Drosophila melanogaster with 40 samples.

Results

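Legs of old and middle-aged control flies were compared: 4 pools of w1118 males taken 47 days after eclosion and 4 pools of untrained w1118 males taken 23 days after eclosion. These 8 libraries were chosen by strain, age and treatment from the 40 libraries of the series, and each held the legs of 15 flies. Both groups were labelled as untreated, and both carry the w1118 allele of the white eye colour gene and no other labelled allele. The other libraries are w1118 at day 7, at day 7 after 2 h of exercise and at day 23 after 19 days of training, with the same 5 conditions in a second strain. That strain, called Hsp70-null here, has the genotype Df(3R)Hsp70A, Df(3R)Hsp70B on w1118 and lacks 6 Hsp70 genes. The series concerns the effect of losing those genes on movement and on gene expression in leg muscle, and w1118 is its control strain. All 23932 features of the table were considered, and 12939 passed the expression filter and were tested. Coordinates are those of Ensembl BDGP6.54.

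A fly leg is mostly striated muscle with epidermis, cuticle, sensory neurons, fat body and blood cells. Its muscle works by sarcomeres that are switched on by calcium and reset by the calcium pump of the sarcoplasmic reticulum, and it is fed by mitochondria that oxidise carbohydrate. Innate immunity rests on the IMD and Toll pathways, whose NF-kB factors switch on genes of antimicrobial peptides, mainly in fat body and gut.

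The day 47 libraries were deeper. Total counts ran from 22515879 to 28714396 at day 23 and from 37517814 to 39313671 at day 47, with no overlap, and the labels name no sequencing run, so depth and age cannot be told apart from the labels. When all libraries were thinned at random to 22515879 counts, 1687 features passed the test, of which 1603 were among the 1731 that passed at full depth. Leg identity genes, such as Dll and dac, summed to 717 to 895 CPM (counts scaled to the library total) at day 23 and 814 to 988 CPM at day 47, and the 3 wing and abdomen selector genes stayed at or below 38.4 CPM.

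Transcripts of other tissues were present. Digestive enzyme genes (38 markers) summed to 8451, 838, 4346 and 4300 CPM in the day 23 libraries and to 28852, 3244, 16972 and 31586 CPM at day 47. So 3 of the day 47 libraries lay above every day 23 library, and replicate 2 lay inside their range. At least 1 CPM was reached by 21 to 34 of the 38 markers at day 23 and by 22 to 28 at day 47. Of the 37 gut markers tested, 1 rose and 3 fell, and their median log2 fold change was 1.14. Testis markers reached 1 CPM for 27 of 39 in day 23 replicate 1 and for 25 in day 47 replicate 3, against 3 to 16 in the other 6 libraries, and their sum was 188 to 384 CPM at day 23 and 194 to 301 CPM at day 47. Eye genes summed to 75.1 to 829 CPM at day 23 and to 71.0 to 155 CPM at day 47. Glia markers summed to 1481 to 1564 CPM at day 23 and to 1348 to 1428 CPM at day 47, with no overlap, and of the 5 tested 1 rose and 3 fell. The part of the glia sum in the results was not tested. In whole legs, fewer cells of a type and less RNA per cell cannot be told apart.

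**Figure D1:**
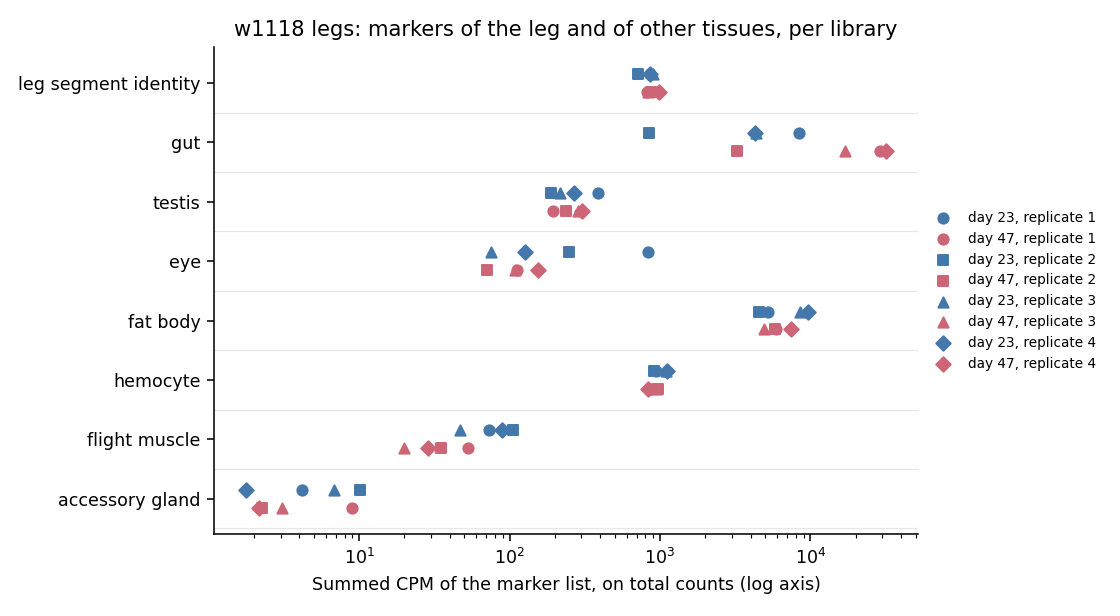
Summed CPM on total counts (log axis) of marker lists for the leg and for other tissues in the 4 day 23 and 4 day 47 libraries of w1118, 1 point per library. The leg list lies between 717 and 988 CPM in all 8, while 3 day 47 libraries exceed every day 23 library in gut markers.

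Many genes differed by small amounts between the ages. At an adjusted p under 0.05 (edgeR quasi-likelihood test, Benjamini-Hochberg over all features tested), 1731 features (13.4% of those tested) differed, 785 of them higher (6.07%) and 946 lower (7.31%) at day 47. Their median absolute log2 fold change was 0.51, and 321 differed more than 2-fold, 196 of them higher. In 1279 of them the 4 libraries of one age lay wholly above or below the 4 of the other, which was true of 14.7% of all features tested. A stricter group of 483 features (194 higher, 289 lower) passed in the fit of 40 libraries, in the fit of the 8 compared libraries alone and without each of the 8 libraries in turn, and these are called repeatable below. With the 8 libraries alone 577 features passed (5% of 11534 tested), and with gut and testis marker sums as covariates 1200 passed. With day 47 replicate 2 as the only day 47 library, 245 passed, a fit in which the lone library is assumed to vary like the others.

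Among repeatable features averaging at least 5 CPM without overlap, Nazo, a gene induced by the Sting antiviral pathway (3R, 8287876 to 8288613), had the second highest fold after CG15818. It was at 1.61, 0.937, 1.13 and 0.850 CPM at day 23 and at 23.8, 15.4, 65.3 and 38.5 CPM at day 47. Every old library stood far above every middle-aged one. It was 31.4-fold higher (log2 4.97 with SE 0.80, edgeR adjusted p = 5.20e-05).

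In the same set the deepest fall was in fln, which codes for flightin, a protein of the thick filament of flight muscle (3L, 19989551 to 19991220). It was at 11.7, 18.2, 8.27 and 13.0 CPM at day 23 and at 0.370, 0.655, 0.341 and 0.342 CPM at day 47. All old libraries were below 1 CPM, and the fall was 29.6-fold (log2 -4.89 with SE 0.33, edgeR adjusted p = 1.36e-11). Of its exonic bases, 61.6% lie opposite the antisense gene asRNA:CR45161, and the library kit marks strand.

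**Figure D2:**
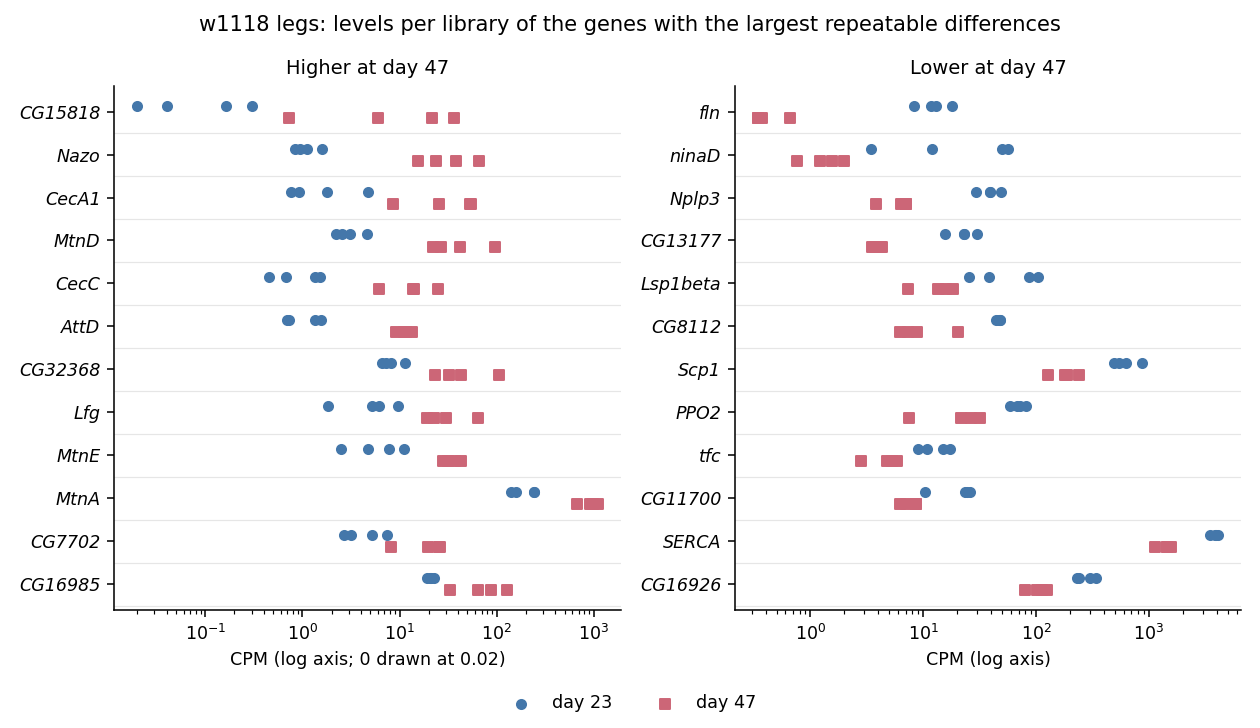
CPM (log axis) in each of the 4 day 23 (circles) and 4 day 47 (squares) libraries of w1118 for the 12 genes with the largest repeatable rise and the 12 with the largest repeatable fall. By the rule that chose them, the libraries of the 2 ages do not overlap in any of the 24.

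Genes of energy metabolism fell together. Of the nuclear genes for respiratory complex I, 31 of 36 tested fell (86.1%, against 7.31% of all features) and 0 rose, with a median log2 fold change of -0.52. Of those for complexes II to V, 34 of 42 fell, 0 rose and the median was -0.60. In the tricarboxylic acid cycle 13 of 15 fell (median -0.52), and in glycolysis 11 of 15 (median -0.43). Falls in 10, 18, 10 and 6 genes of these 4 lists were repeatable, beside 289 repeatable falls among all 12939 features tested.

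SdhA, the flavoprotein subunit of complex II, showed the size of the shift in every library. It was at 1259, 1335, 1328 and 1259 CPM at day 23 and at 844, 900, 813 and 776 CPM at day 47. The 2 ages were well apart, with a log2 fold change of -0.64 (SE 0.08, edgeR adjusted p = 3.53e-06). COX4, a subunit of cytochrome c oxidase, went from 571, 766, 569 and 516 CPM to 395, 377, 375 and 310 CPM (log2 -0.73 with SE 0.11, edgeR adjusted p = 2.80e-05). UQCR-Q of complex III fell by 0.89 (SE 0.14), ATPsynD of ATP synthase by 0.62 (SE 0.10) and the electron carrier Cyt-c-p by 0.87 (SE 0.15) on the log2 scale. In complex I, ND-B17.2 fell by 0.72 (SE 0.13), ND-13B by 0.74 (SE 0.13) and ND-23 by 0.60 (SE 0.10), though ND-13B missed the threshold in the fit of 8 libraries (edgeR adjusted p = 0.0572).

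One complex I gene stood apart in size. ND-B8 was at 3.02, 6.14, 2.07 and 2.79 CPM at day 23 and at 0.271, 0.121, 0.0682 and 0.114 CPM at day 47. That is a fall of 23.8-fold (log2 -4.57 with SE 0.45, edgeR adjusted p = 3.09e-08), while the other members of the list had log2 fold changes no lower than -1.20, the value of ND-AGGG. The ND-AGGG call was lost without day 23 replicate 2 (edgeR adjusted p = 0.207) or day 47 replicate 4 (0.0837).

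Among the matrix enzymes, mAcon1 (mitochondrial aconitase) was at 2247, 2412, 2397 and 2412 CPM at day 23 and at 1457, 1317, 1350 and 1411 CPM at day 47. The libraries of each age were tightly grouped, and the log2 fold change was -0.77 (SE 0.08, edgeR adjusted p = 3.23e-08). Nc73EF, a 2-oxoglutarate dehydrogenase, fell by 0.67 (SE 0.08) and kdn, the citrate synthase, by 0.46 (SE 0.12) on the log2 scale. In glycolysis, Ald1 (aldolase) fell by 0.78 (SE 0.10), Eno (enolase) by 0.57 (SE 0.09) and Pfk (phosphofructokinase) by 0.54 (SE 0.09). Glycogen phosphorylase (GlyP) went from 799, 884, 945 and 835 CPM to 529, 524, 530 and 539 CPM, and the fall was 0.71 on the log2 scale. In trehalose and glycogen metabolism 4 of 9 genes fell and 0 rose (44.4%, against 7.31% of all features lower). GlyS, the glycogen synthase, was among them and fell by 0.53 (SE 0.09).

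Of 75 mitochondrial ribosomal protein genes, 18 fell and 0 rose (24%, against 7.31% of all features lower), with a median of -0.20, and 2 of the falls were repeatable, mRpL41 by 0.62 (SE 0.11) being one. Of the 13 proteins coded by the mitochondrial genome, 12 did not pass and mt:ND2 rose (log2 1.35 with SE 0.41, edgeR adjusted p = 0.0241), a call lost without day 23 replicates 1 or 4 or day 47 replicate 4 (edgeR adjusted p = 0.0986, 0.0536 and 0.125). mt:CoI was at 11677, 19114, 11224 and 10568 CPM at day 23 and at 9733, 12555, 9760 and 10258 CPM at day 47, groups that overlap. This list was added after its values were seen. In lipid metabolism 1 gene of 21 rose and 3 fell (19% called, against 13.4% of all features), with a median of -0.21.

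The falls in energy genes were measured beside the gut signal. In the day 47 library whose gut sum lay inside the day 23 range, the median log2 fold change was -0.43 for complex I, -0.50 for complexes II to V, -0.43 for the tricarboxylic acid cycle and -0.40 for glycolysis. The fit with that library alone assumes it to vary like the others, and most list members, like most features, did not pass in it. With marker sums as covariates and all 4 old libraries, 23, 28, 13 and 7 genes fell. In that fit 1200 of all 12939 features passed, in either direction. Day 23 replicate 2 had the highest score of the 4 day 23 libraries in each of these lists and day 47 replicate 4 the lowest of the day 47 libraries, as the plot of list scores shows.

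**Figure D3:**
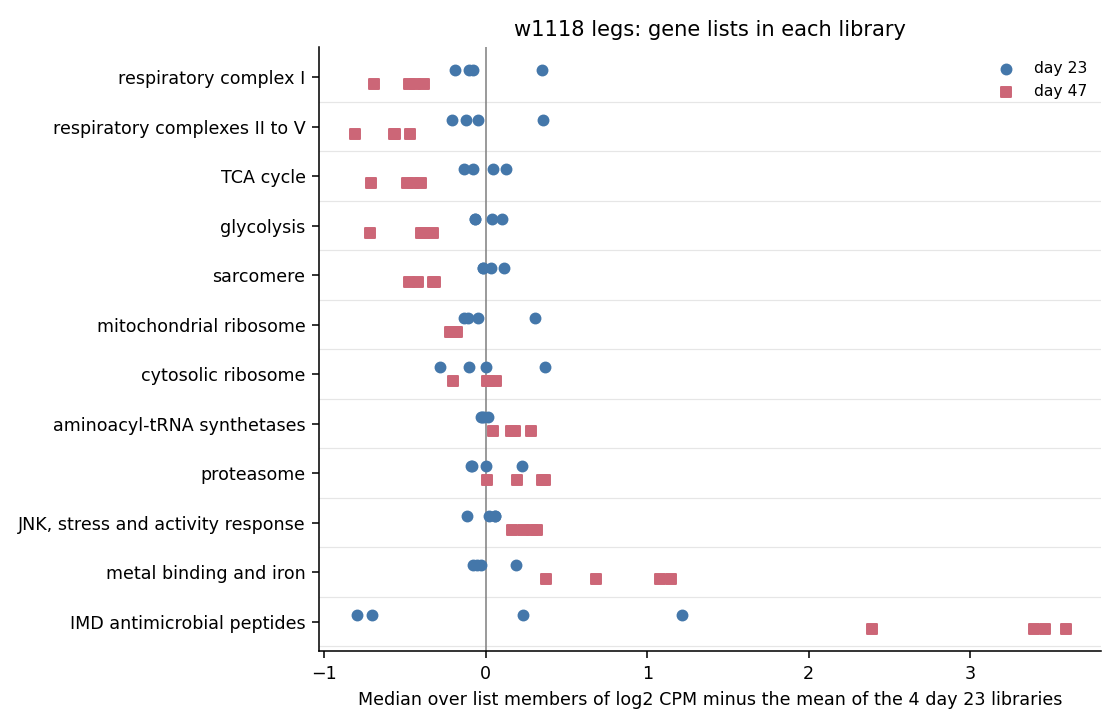
For 12 gene lists, the median over members of log2 CPM minus the mean of the 4 day 23 libraries, 1 point per library (circles day 23, squares day 47). The 4 energy lists and the sarcomere list lie below 0 in all day 47 libraries without overlap, and the antimicrobial peptides of the IMD pathway lie 2.39 to 3.59 above.

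Of 35 sarcomere genes, 16 fell and 3 rose (54.3% called, against 13.4% of all features, with a median log2 fold change of -0.36), and 8 falls and 2 rises were repeatable. Zasp52, which anchors thin filaments at the Z-disc, was at 1820, 1896, 1814 and 1835 CPM at day 23 and at 1253, 1352, 1166 and 1322 CPM at day 47. The 2 ages were far apart relative to their spread (log2 -0.53 with SE 0.09, edgeR adjusted p = 6.62e-05). The giant muscle proteins projectin (bt) and obscurin (Unc-89) fell by 0.60 (SE 0.16) and 0.65 (SE 0.14) on the log2 scale. The Z-disc cross-linker Actn fell by 0.44 (SE 0.12). The myosin light chains Mlc2 and Mlc1 fell by 0.59 and 0.54 (SE 0.14 each), but neither passed in the fit of 8 libraries (edgeR adjusted p = 0.0555 and 0.0766), and Actn was lost without day 47 replicate 4 (0.0549).

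Act79B, an actin of leg and other tubular muscle, was at 665, 758, 738 and 644 CPM at day 23 and at 417, 418, 378 and 275 CPM at day 47. It had a log2 fold change of -0.91 (SE 0.18, edgeR adjusted p = 0.000469). Actin genes are alike in sequence, and how reads that fit several genes were treated is not given in the sources used here. The flight muscle genes Act88F and TpnC4 also fell, by 1.01 (SE 0.27) and 1.22 (SE 0.42) on the log2 scale. With fln they summed to 46.7 to 105 CPM at day 23 and 19.7 to 52.9 CPM at day 47, so the groups overlapped. Act88F was lost without day 23 replicate 2 or day 47 replicate 3 (edgeR adjusted p = 0.0681 and 0.0580). TpnC4 was called in the fit of 40 libraries at 0.0468 and was lost without day 23 replicates 1, 2 or 4 or day 47 replicates 2, 3 or 4 (0.0613 to 0.187).

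The sarcomere list also held 3 rises. cpa and cpb code for both subunits of the actin capping protein, which is used in all cells, and rose by 0.46 (SE 0.08) and 0.37 (SE 0.07) on the log2 scale. TpnC73F, a troponin C gene, was at 19.9, 11.6, 8.49 and 12.0 CPM at day 23 and at 39.98, 9.18, 37.0 and 43.2 CPM at day 47. Its low library, replicate 2, is also the one with little gut signal, and against day 23 that library alone gave a log2 fold change of -0.52. Its call (edgeR adjusted p = 0.0164) was lost without day 23 replicates 2 or 3 or day 47 replicates 1 or 4 (0.0529, 0.0621, 0.0526 and 0.0611).

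Of 14 genes of muscle calcium handling, 5 fell and 0 rose (35.7%, against 7.31% of all features lower), with a median of -0.26. SERCA, the calcium pump of the sarcoplasmic reticulum (2R, 23925077 to 23935884), was at 3948, 3842, 4107 and 3492 CPM at day 23 and at 1562, 1461, 1451 and 1131 CPM at day 47. Every old library lay far below every middle-aged one, and the fall was 2.75-fold (log2 -1.46 with SE 0.13, edgeR adjusted p = 7.20e-09). Scp1, a sarcoplasmic calcium-binding protein (2R, 2932595 to 2968052), went from 630, 877, 540 and 489 CPM to 190, 238, 180 and 126 CPM. The groups did not overlap, and the fall was 3.45-fold (log2 -1.79 with SE 0.26, edgeR adjusted p = 1.30e-05). RyR, the calcium release channel, fell by 0.70 (SE 0.18) on the log2 scale. Of 30 neuromuscular and neuronal genes, 1 rose and 0 fell (3.33% called, against 13.4% of all features). Their median was -0.21, 6 had a positive log2 fold change, 8 had an unadjusted p under 0.05, and DESeq2 called 1 higher and 3 lower. With the day 47 library of low gut signal alone the median was -0.50.

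Antimicrobial peptide genes of the IMD pathway were higher at day 47 than at day 23. All 13 had a positive log2 fold change, with a median of 3.14, and 6 passed the test (46.2%, against 6.07% of all features higher): CecA1, CecA2, CecB, CecC, AttD and Def. Rises in CecA1, CecC and AttD were repeatable. AttD, an attacin, was at 0.688, 0.724, 1.54 and 1.34 CPM at day 23 and at 13.4, 11.2, 9.28 and 11.7 CPM at day 47. All old libraries were alike and far above the rest (10.6-fold, log2 3.41 with SE 0.86, edgeR adjusted p = 0.00620).

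The cecropin genes lie within a short stretch of 3R (CecA1 at 30210874 to 30211273 and CecC at 30216484 to 30216938) and are near-identical in sequence, so the split of reads between them is uncertain. CecA1 went from 0.918, 0.767, 4.73 and 1.78 CPM to 53.5, 25.2, 8.60 and 53.9 CPM, and CecC from 0.459, 0.682, 1.5 and 1.34 CPM to 14.2, 13.7, 6.12 and 25.2 CPM. In both, day 23 replicate 3 was the highest of its age and day 47 replicate 3 the lowest, yet the ages did not overlap. CecA2 and CecB had log2 fold changes of 3.88 (SE 1.07) and 4.01 (SE 1.20). CecA2 was lost without day 23 replicate 2 (edgeR adjusted p = 0.0508), CecB without day 23 replicates 1, 2 or 4 or day 47 replicate 4 (0.0547 to 0.0791), and Def without day 23 replicates 1 to 4 or day 47 replicates 1 or 2 (0.0520 to 0.196).

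Other members spread more between pools. DptA, a diptericin, was at 3.87, 3.66, 74.8 and 13.7 CPM at day 23 and at 716, 213, 195 and 546 CPM at day 47. Its groups did not overlap, but it missed the threshold (log2 4.12 with SE 1.51, edgeR adjusted p = 0.0667). AttC ranged from 24.1 to 276 CPM at day 23 and from 231 to 805 CPM at day 47, with an overlap (log2 2.18 with SE 1.05, edgeR adjusted p = 0.183). Day 23 replicate 3 was the highest day 23 library in both.

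Rel and PGRP-LB, regulators of the IMD pathway, also rose. Rel, its NF-kB factor, was at 219, 219, 279 and 246 CPM at day 23 and at 325, 447, 331 and 341 CPM at day 47. Every old library was above every middle-aged one (log2 0.58 with SE 0.11, edgeR adjusted p = 0.000525). PGRP-LB, an amidase that degrades peptidoglycan and dampens the pathway, went from 24.9, 18.2, 31.7 and 18.6 CPM to 47.0, 59.6, 42.2 and 62.2 CPM (log2 1.17 with SE 0.26, edgeR adjusted p = 0.00194). Among 35 genes of immune recognition and signalling, 5 rose and 5 fell, a share of 28.6% called against 13.4% of all features, with a median of -0.02. SPE, a protease that activates the Toll ligand, fell by 0.61 (SE 0.12), and it missed the threshold in the fit of 8 libraries (edgeR adjusted p = 0.0687).

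Of 17 Toll effectors, 1 rose and 2 fell (17.6% called, against 13.4% of all features), and the median was -0.37. The riser was Mtk (metchnikowin), which also answers to IMD, at 5.74, 8.01, 72.5 and 10.5 CPM at day 23 and at 99.0, 221, 131 and 480 CPM at day 47. Its call (edgeR adjusted p = 0.0275) was lost without day 23 replicates 1, 2 or 4 or day 47 replicate 4 (0.0894 to 0.100). Drs (drosomycin) was at 58.4, 89.5, 61.7 and 59.6 CPM and then at 79.7, 191, 150 and 120 CPM, groups that overlapped (log2 1.01 with SE 0.46, edgeR adjusted p = 0.158). With the day 47 library of low gut signal alone, the median over IMD peptides was 3.15 and that over Toll effectors 0.13.

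PPO2 and Lsp1beta, products of blood cells and fat body, fell. PPO2, a prophenoloxidase made by crystal cells, was at 59.3, 68.2, 81.2 and 71.5 CPM at day 23 and at 26.5, 21.7, 31.5 and 7.48 CPM at day 47. The fall was 3.21-fold without overlap (log2 -1.68 with SE 0.25, edgeR adjusted p = 1.50e-05). Lsp1beta, a larval serum storage protein, went from 38.0, 25.5, 86.5 and 105 CPM to 16, 13.5, 18.5 and 7.35 CPM (log2 -2.20 with SE 0.47, edgeR adjusted p = 0.00140). The hemocyte marker sum, of which PPO2 is a member, was 915 to 1116 CPM at day 23 and 828 to 963 CPM at day 47. Of its 10 members 2 were lower and 0 higher, against 7.31% of all features lower. Their median log2 fold change was -0.12. The fat body sum was 4564 to 9681 CPM and 4886 to 7432 CPM. Of its 9 tested members 1 was lower and 0 higher, with a median of -0.01. The part of these tissue sums in the falls was not tested.

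Most metal-binding genes rose. Of 12 genes of metal binding and iron storage, 7 rose and 1 fell (66.7% called, against 13.4% of all features), with a median log2 fold change of 0.82, and the rises in MtnA, MtnD and MtnE were repeatable. Metallothioneins are small proteins that bind copper, zinc and cadmium. MtnA (3R, 9783407 to 9784370) was at 159, 244, 242 and 140 CPM at day 23 and at 983, 918, 669 and 1090 CPM at day 47. The lowest old library was above the highest middle-aged one by a wide margin (4.67-fold, log2 2.22 with SE 0.32, edgeR adjusted p = 1.41e-05).

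MtnD went from 2.23, 2.56, 4.66 and 3.12 CPM to 42.3, 21.8, 26.8 and 96.4 CPM, and MtnE from 7.77, 2.47, 11.0 and 4.77 CPM to 43.0, 27.8, 37.0 and 31.3 CPM. Neither gene's groups overlapped (log2 3.90 with SE 0.81 and 2.41 with SE 0.57, edgeR adjusted p = 0.00108 and 0.00352). With gut and testis sums as covariates the log2 fold changes of MtnA, MtnD and MtnE were 2.32, 2.52 and 1.62, each past the threshold. Both ferritin chains rose by 0.63 on the log2 scale, Fer1HCH with SE 0.15 and Fer2LCH with SE 0.16, and Fer2LCH was lost without day 47 replicate 4 (edgeR adjusted p = 0.0781). The genes of the ferritin chains overlap over 7.16% of the exonic bases of Fer2LCH.

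In the list of JNK, stress and activity response genes, 6 of 18 tested rose and 0 fell (33.3%, against 6.07% of all features higher). The median was 0.29, and 3 rises were repeatable. Ets21C, an ETS factor induced by JNK signalling, was at 5.41, 4.09, 4.17 and 3.80 CPM at day 23 and at 9.59, 20.3, 16.6 and 9.13 CPM at day 47. It was 3.18-fold higher with no overlap (log2 1.67 with SE 0.25, edgeR adjusted p = 1.70e-05). Gadd45, a stress-induced adaptor, rose by 0.86 (SE 0.13), puc, the phosphatase that ends JNK signalling, by 0.52 (SE 0.09) and the stress factor Xrp1 by 0.40 (SE 0.09) on the log2 scale.

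In the list of Turandot and JAK-STAT genes 4 of 13 rose and 1 fell (38.5% called, against 13.4% of all features), with a median log2 fold change of -0.04. The cytokine gene upd3 was low throughout, at 0.229, 0.128, 0.338 and 0.202 CPM at day 23 and at 0.690, 1.09, 1.93 and 1.23 CPM at day 47. All old libraries were above all others (log2 2.44 with SE 0.49, edgeR adjusted p = 0.000732). Socs36E, a feedback inhibitor of the pathway, rose by 0.70 (SE 0.16), and it missed the threshold in the fit of 8 libraries (edgeR adjusted p = 0.0795). The cytokine gene upd2 rose by 1.77 (SE 0.55) and the receptor gene dome by 0.34 (SE 0.11). Neither call was made in the fit of 8 libraries (edgeR adjusted p = 0.107 and 0.188). The call of upd2 was also lost without day 23 replicates 2, 3 or 4 or day 47 replicate 2 (0.0555 to 0.171), and that of dome without day 23 replicate 2 or day 47 replicates 1, 3 or 4 (0.0574 to 0.169) or with marker sums as covariates (0.114).

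The 4 Turandot genes tested, which code for secreted proteins induced by stress, had negative log2 fold changes. TotX fell by 0.91 (SE 0.28), a call lost in the fit of 8 libraries (edgeR adjusted p = 0.259), without day 23 replicates 1 or 2 or day 47 replicates 3 or 4 (0.0631 to 0.133) and with marker sums as covariates (0.113). TotA, TotC and TotM, at -1.76 (SE 0.75), -2.26 (SE 0.90) and -2.71 (SE 1.21), did not pass edgeR's test, while DESeq2 called TotC lower. Day 23 replicate 1 was far above the other libraries of its age in these 3 genes, and without it the log2 fold change of TotM was 0.38.

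Detoxification genes were mixed. Among 34 glutathione transferases 6 rose and 3 fell (26.5% called, against 13.4% of all features), and the repeatable rises were all in the GstD cluster: GstD10 went from 1.74, 0.937, 1.84 and 1.29 CPM to 8.77, 6.94, 8.75 and 5.25 CPM (log2 2.35 with SE 0.38, edgeR adjusted p = 4.75e-05). GstD2 rose by 1.60 (SE 0.24) and GstD5 by 2.66 (SE 0.64) on the log2 scale. Among 81 cytochrome P450 genes 3 rose and 9 fell, a share of 14.8% called against 13.4% of all features. Cyp4e3 was at 26.7, 36.4, 27.6 and 33.2 CPM at day 23 and at 32.8, 203, 63.6 and 101 CPM at day 47, so that 1 old library lay within the younger range (log2 1.69 with SE 0.34, edgeR adjusted p = 0.000859). Gclc, which makes the first step of glutathione synthesis, rose by 0.65 (SE 0.11), and Sod2, the mitochondrial superoxide dismutase, fell by 0.43 (SE 0.10). In the antioxidant list of 17, 3 rose and 3 fell, a share of 35.3% called.

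All 32 proteasome genes had a positive log2 fold change, with a median of 0.23 against 0.0013 over all features tested, and 13 rose while 0 fell (40.6%, against 6.07% of all features higher). In the fit of 8 libraries 2 of them passed. In the other turnover list, of autophagy and mitophagy, 1 of 25 genes rose and 1 fell (8% called, against 13.4%), with a median of -0.02. Rpn2, a scaffold of the regulatory particle, was at 159, 146, 196 and 175 CPM at day 23 and at 246, 232, 217 and 222 CPM at day 47, without overlap (log2 0.44 with SE 0.08, edgeR adjusted p = 0.000335). Rpn8 and Rpn10, also of that particle, rose by 0.39 (SE 0.09) and 0.29 (SE 0.06). The scores of the list overlapped between ages, with day 47 replicate 4 at 0.01 and day 23 replicate 2 at 0.23.

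Prosalpha1, a subunit of the catalytic core (2R, 7827303 to 7828678), had the largest rise of the list, from 15.9, 11.8, 6.99 and 8.01 CPM to 28.1, 30.5, 27.6 and 22.3 CPM. The groups did not overlap (log2 1.34 with SE 0.21, edgeR adjusted p = 2.80e-05). Its neighbour CG30382, at 7830413 to 7831771 on the same strand, had nearly the same levels, 15.0, 10.2, 6.20 and 7.40 CPM and then 25.3, 28, 25.7 and 21.4 CPM, so the division of reads between these 2 genes is uncertain.

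Of 26 heat shock and chaperone genes tested, 5 rose and 2 fell (26.9% called, against 13.4% of all features), with a median of -0.04. In the fit of 8 libraries 1 of the rises and 1 of the falls passed. Hsc70-4, the main cytosolic Hsc70, was at 1659, 1633, 1619 and 1504 CPM at day 23 and at 1899, 2069, 1964 and 2198 CPM at day 47 (log2 0.34 with SE 0.09, edgeR adjusted p = 0.00724; 0.0535 in the fit of 8 libraries). Its groups did not overlap, and neither did those of l(2)efl, a small heat shock protein, which rose by 0.72 (SE 0.20). The chaperone of the endoplasmic reticulum Hsc70-3 rose by 0.49 (SE 0.12) and was lost without day 47 replicate 4 (edgeR adjusted p = 0.0524). Hsc70-1 fell by 0.68 (SE 0.10). CG4456 covers 100% of the exonic bases of Hsp22 in the same direction, and Hsp22 rose by 0.60 (SE 0.18, edgeR adjusted p = 0.0259), a call lost without day 23 replicates 1, 3 or 4 or day 47 replicates 1, 2 or 3 (0.0612 to 0.0946). Over the 40 libraries CG4456 had 152338 counts and Hsp22 152304, so the rise cannot be assigned to Hsp22 alone. Of 14 unfolded protein response genes 3 rose and 0 fell (21.4%, against 6.07% of all features higher), and Xbp1, the transcription factor of that response, rose by 0.38 (SE 0.08).

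Among the genes that charge transfer RNAs, 12 of 31 rose and 0 fell (38.7%, against 6.07% of all features higher), with a median of 0.21. In the fit of 8 libraries 2 of them passed. A positive log2 fold change was found for 22 genes, and every negative one belonged to a mitochondrial enzyme, marked -m. Among the mitochondrial enzymes ArgRS-m and AspRS-m rose. AspRS was at 77.8, 79.7, 89.9 and 78.6 CPM at day 23 and at 126, 107, 146 and 120 CPM at day 47, without overlap (log2 0.62 with SE 0.11, edgeR adjusted p = 0.000164). Of its exonic bases, 63.9% lie opposite asRNA:CR45141. AlaRS rose by 0.34 (SE 0.07), and in the day 47 library of low gut signal its level of 81.9 CPM was the lowest of the 4 old libraries. The median of the list was 0.17 with marker sums as covariates and 0.03 with that library alone. Of 86 genes of the cytosolic ribosome, 0 passed edgeR's test against 13.4% of all features, 2 had an unadjusted p under 0.05, 1 passed with DESeq2, and their median was -0.04.

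Other genes with large repeatable changes lie outside these lists. CG15818 rose from 0.164, 0, 0.301 and 0.0405 CPM to 6.06, 0.728, 21.6 and 36.6 CPM. The lowest old library was replicate 2, that of low gut signal, where the log2 fold change was 2.42, against 6.91 (SE 1.78, edgeR adjusted p = 0.00746) over all 4. CG32368, Lfg, CG7702 and CG16985 had log2 fold changes of 2.63, 2.58, 2.08 and 1.92 and adjusted p-values of 0.000164 to 0.00832 (edgeR). Lfg lies wholly opposite the antisense gene asRNA:CR43468.

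Nplp3, which codes for a neuropeptide-like precursor, fell from 39.2, 49.0, 38.9 and 29.3 CPM to 7.07, 6.34, 7.05 and 3.83 CPM. The old libraries were close together and far below the rest (6.44-fold, log2 -2.69 with SE 0.31, edgeR adjusted p = 5.44e-07). ninaD, a scavenger receptor needed for carotenoid uptake, varied more at day 23, at 56.0, 11.9, 49.4 and 3.44 CPM, and was at 1.97, 1.55, 1.21 and 0.753 CPM at day 47. It fell 22.0-fold (log2 -4.46 with SE 0.57, edgeR adjusted p = 2.34e-06). CG13177, CG8112, tfc, CG11700 and CG16926 fell by 2.54, 2.15, 1.47, 1.46 and 1.41 on the log2 scale. All exonic bases of CG8112 lie opposite Cks85A.

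Of 39 cuticle protein genes 4 rose and 5 fell, a share of 23.1% called against 13.4% of all features. Of 8 genes of the yellow family, known for pigment and cuticle, 4 fell (50%, against 7.31% of all features lower). yellow-e was at 161, 135, 234 and 227 CPM at day 23 and at 113, 102, 83.5 and 62.8 CPM at day 47 (log2 -1.07 with SE 0.19, edgeR adjusted p = 0.000162). Of 37 odorant-binding protein genes 7 fell and 0 rose (18.9%, against the same 7.31%). Obp99b went from 170, 184, 200 and 225 CPM to 86.4, 100, 70.0 and 66.8 CPM, groups far apart (log2 -1.27 with SE 0.34, edgeR adjusted p = 0.00922), and the call was not made with marker sums as covariates (0.0697). Among 34 gustatory and ionotropic receptors 2 fell (5.88%). Of 17 ppk channel genes, 20 CheA and CheB genes, 10 clock genes, 14 ecdysone and juvenile hormone genes and 6 lysozyme genes, 0 passed edgeR's test. At an unadjusted p under 0.05 these lists held 0, 1, 1, 0 and 1 genes, and DESeq2 called 0, 0, 1, 0 and 1.

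Of 491 tested copies of transposable elements 21 rose and 7 fell, a share of 5.7% called against 13.4% of all features. FBti0018968 was at 1.87, 1.79, 1.62 and 2.06 CPM at day 23 and at 6.04, 5.92, 6.82 and 6.98 CPM at day 47 (log2 1.81 with SE 0.24, edgeR adjusted p = 3.53e-06). FBti0019469 rose by 1.64 (SE 0.25) and FBti0019343 fell by 2.52 (SE 0.37). Copies of a family share sequence, so the assignment of reads to single copies is uncertain. Of 379 long noncoding RNAs 19 rose and 10 fell (7.65% called), and of 217 antisense RNAs 1 rose and 9 fell (4.61%). lncRNA:CR45361 (2L, 20484399 to 20487548) rose from 1.67, 2.22, 1.47 and 1.82 CPM to 5.84, 6.63, 6.62 and 7.55 CPM, without overlap (log2 1.89 with SE 0.19, edgeR adjusted p = 3.09e-08).

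The same ages were compared in the Hsp70-null strain, which shares no library with w1118. Its day 47 libraries were deeper too, at 35144736 to 38184917 counts against 23802293 to 27586496 at day 23. Depth and age therefore cannot be told apart in that strain either, and agreement between strains is not free of depth. There 466 features passed (3.6% of those tested, edgeR). Of the 1731 features called in w1118, 1507 (87.1%) had the same sign in Hsp70-null, against 66.6% of all features tested. The sizes were smaller there: features called higher in w1118 had a median log2 fold change of 0.46 in w1118 and 0.20 in Hsp70-null, and those called lower had -0.54 and -0.21. The features were chosen in w1118, so their sizes there are not independent of the choice. A further count is that 287 were called in both strains with the same sign and 2 with opposite signs.

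**Figure D4:**
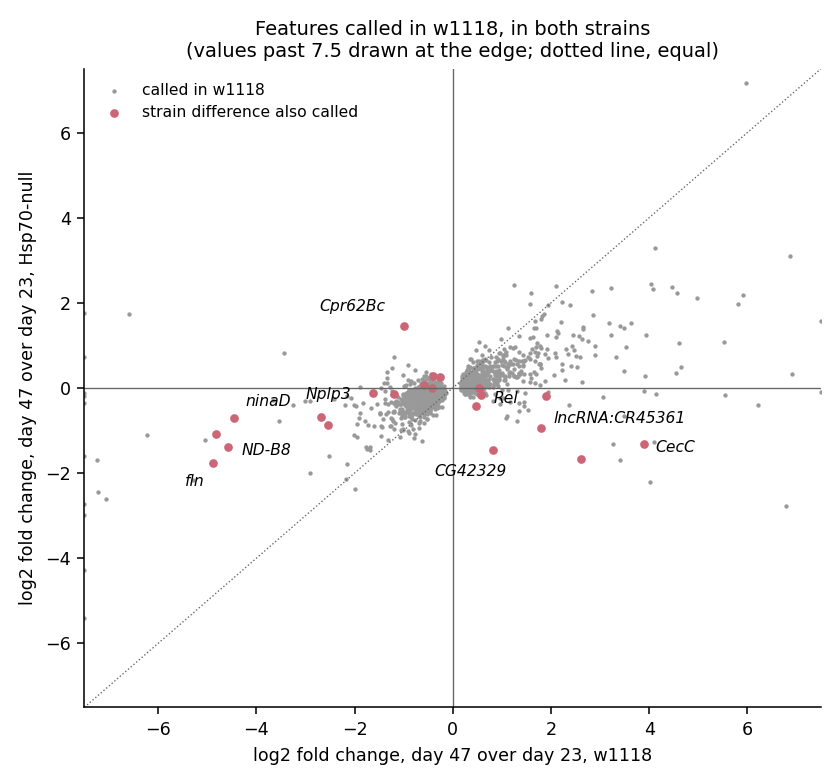
Log2 fold change from day 23 to day 47 in w1118 (x axis) and in Hsp70-null (y axis) for the 1731 features called in w1118, 1 point each, with those whose difference between strains was also called in rose. Of the 1731 points, 1507 have the same sign in both strains.

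The medians of the lists differed between strains, a difference that was not tested for a list. The median log2 fold change was -0.52 in w1118 and -0.01 in Hsp70-null for complex I, -0.60 and -0.12 for complexes II to V, -0.52 and -0.27 for the tricarboxylic acid cycle and -0.36 and -0.08 for the sarcomere. For SERCA it was -1.46 and -1.12, and for MtnA 2.22 and 2.01, with differences between strains of -0.34 (SE 0.18) and 0.21 (SE 0.44) that did not pass the test. For IMD peptides the medians were 3.14 and -1.66.

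The difference between strains was tested for each feature as an interaction, and 23 features passed (0.178% of those tested, edgeR), 9 of them with the higher change in w1118. 1365 had an unadjusted p under 0.05. The 4 with the lowest p were lncRNA:CR45361, fln, CG42329 and Cpr62Bc. In Hsp70-null, lncRNA:CR45361 had 2.24 ± 0.116 CPM in middle-aged and 1.96 ± 0.0809 CPM in old flies (SD, n = 4), and the interaction was 2.08 (SE 0.26, edgeR adjusted p = 4.48e-05). fln fell in both strains, to 6.86 ± 2.34 CPM from 23.3 ± 2.12 CPM in Hsp70-null (SD, n = 4 each), and the interaction was -3.13 (SE 0.41, edgeR adjusted p = 8.01e-05).

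CG42329 was at 21.4 ± 3.38 CPM and 7.75 ± 1.36 CPM in Hsp70-null but at 3.68 ± 0.853 CPM and 6.51 ± 1.84 CPM in w1118 at days 23 and 47 (SD, n = 4 each), with an interaction of 2.29 (SE 0.31, edgeR adjusted p = 0.000126). The cuticle gene Cpr62Bc rose in Hsp70-null (log2 1.45, edgeR adjusted p = 0.00201) and was lower at day 47 in w1118 (-0.98, 0.0176). In w1118 CG42329 was lost without day 23 replicate 1 or day 47 replicate 3 (edgeR adjusted p = 0.0507 and 0.0605), and Cpr62Bc without day 23 replicate 3 or day 47 replicates 3 or 4 (0.0695, 0.0620 and 0.0847). Among genes described above, CecC, Rel, Drs, ND-B8, ND-23, Nplp3, ninaD and CG13177 also passed. CecC went from 18.8 ± 11.1 CPM to 7.51 ± 6.63 CPM in Hsp70-null (SD, n = 4 each), and Rel from 348 ± 40.2 CPM to 310 ± 25.0 CPM. In w1118 the same genes were at 14.8 ± 7.84 CPM and 361 ± 58 CPM in old flies (SD, n = 4).

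The 6 Hsp70 genes that the other strain lacks are present in w1118. Of these, 5 were tested and 0 passed, at an adjusted p of 0.538 to 0.718 (edgeR). Hsp70Bb was at 0.492, 4.43, 1.5 and 3.28 CPM at day 23 and at 0.764, 2.21, 1.75 and 0.821 CPM at day 47, groups that overlapped widely (log2 -0.80 with SE 0.93). Hsp70Ba did not pass the expression filter, and reads of these near-identical copies cannot be assigned with certainty.

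The comparisons with day 7 share the day 23 libraries, so only levels are given. At days 7, 23 and 47 (mean ± SD, n = 4), SERCA was at 13586 ± 2149, 3847 ± 261 and 1401 ± 187 CPM, Scp1 at 4620 ± 1052, 634 ± 172 and 184 ± 45.9 CPM, and Nplp3 at 334 ± 91.7, 39.1 ± 8.06 and 6.07 ± 1.53 CPM. MtnA was at 63.2 ± 13.6, 196 ± 54.3 and 915 ± 178 CPM.

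In the same order CecA1 was at 27.2 ± 9.57, 2.05 ± 1.84 and 35.3 ± 22.3 CPM, and AttD at 19.2 ± 5.81, 1.07 ± 0.431 and 11.4 ± 1.70 CPM, so day 23 had the lowest mean of the 3 ages. Trained flies of day 23 were at 1.64 ± 1.57 CPM for CecA1 and 0.786 ± 1.06 CPM for AttD. ND-23, by contrast, was at 372 ± 7.79, 418 ± 71.0 and 277 ± 17.3 CPM, and Gadd45 at 24.6 ± 6.15, 23.1 ± 1.89 and 42.1 ± 6.22 CPM, with the larger step after day 23. Nazo was at 1.02 ± 0.859, 1.13 ± 0.338 and 35.8 ± 21.9 CPM. ND-23 does not stand for the energy lists, and its day 23 mean includes replicate 2 at 523 CPM. Complex I scores were 0.15 to 0.38 at day 7 and -0.19 to 0.35 at day 23. Those of complexes II to V were 0.23 to 0.49 and -0.21 to 0.35. Those of the tricarboxylic acid cycle were 0.21 to 0.40 and -0.13 to 0.12, and those of glycolysis 0.44 to 0.64 and -0.07 to 0.10.

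Some of the calls given above by their size ended in other fits. In the fit of 8 libraries these were Rpn8, Rpn10, Sod2, Fer1HCH, Xbp1, Xrp1, AlaRS and Cyp4e3, with edgeR adjusted p-values of 0.0531 to 0.0989. With gut and testis marker sums as covariates they were Act88F, CecA2, Def, TpnC73F, mt:ND2, Mtk, Lfg, TpnC4, Cpr62Bc, ND-AGGG and CG42329, at 0.0559 to 0.178.

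**Figure D5:**
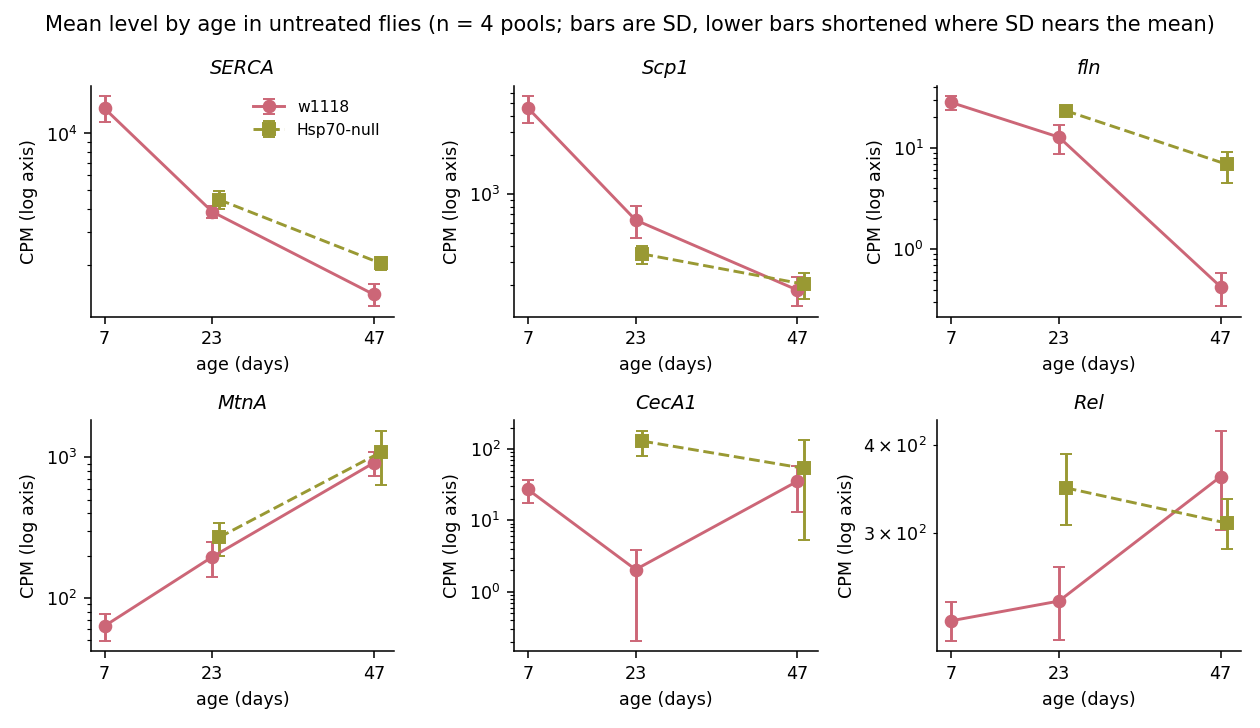
Mean CPM (log axis) of 6 genes in untreated w1118 at days 7, 23 and 47 and in untreated Hsp70-null at days 23 and 47, drawn 1 day to the right, with SD over 4 pools and lower bars shortened where the SD nears or exceeds the mean. In w1118 the means of SERCA, Scp1 and fln descend with age and that of MtnA ascends, and CecA1 in w1118 is lowest at day 23.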

How the data were processed

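Strand-specific libraries of polyA RNA were made from legs, 4 pools of 15 flies per group, per the labels' protocols. The authors deposited raw counts per feature, whole numbers for 40 libraries. HISAT2 2.1.0, kallisto 0.44.0 and the build BDGP6 are named in the submitters' processing notes; the counting tool and the treatment of reads that fit several genes are not given in the sources used here. From the counts, features were filtered with filterByExpr, scaled by TMM and tested with edgeR 4.0.16 (R 4.3.3, limma 3.58.1) by quasi-likelihood F tests on 10 group means with 30 residual degrees of freedom, Benjamini-Hochberg adjusted over 12939 features at a threshold of 0.05. SE is the log2 fold change divided by the root of F. CPM of genes is TMM-scaled, and marker sums use total counts. A list score is the median over members of log2 CPM (prior count 2).

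Totals ran from 22515879 to 39313671 counts in the 8 compared libraries. No pair of libraries within a group was a copy (chi-square per degree of freedom 61.5 to 314). P-values set each difference against the spread between pools of a group, which the fit of 40 libraries estimates over all 10 groups. Of 23932 features, 23851 matched Ensembl BDGP6.54 by identifier. Features with counts identical to another in all libraries numbered 263 of those tested, 39 of them called.

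Members and lists were chosen with earlier results of these data known. Genes were named by rule: per direction, the 12 with the largest change among repeatable calls without overlap and averaging 5 CPM or more over the 8 libraries; per list, up to 4 with the lowest p; the 4 lowest interaction p; and the 6 Hsp70 genes. Other named genes were chosen after their values were seen, among them Act79B, DptA, AttC, Unc-89, Actn, CG30382, Drs, mt:CoI, TpnC73F, TpnC4, dome, TotA, TotC and TotM. Alternatives were RLE, DESeq2 1.42.0, other filters, the compared groups alone, a replicate block, robust estimation, thinning, marker covariates, glmTreat at a fold of 1.5 and leaving out libraries. On simulated data with 200 genes changed 2-fold, the test of 40 libraries (12780 genes) recovered 61% with 0.813% false calls, and that of 8 libraries (11924 genes) 57.7% of 182 with 4.55% false. The simulated counts used the fitted dispersions, the same mean in every group for unchanged genes and no difference in tissue content. These rates therefore do not measure errors among the real calls.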

Additional observations from a re-analysis of the deposited data

Results flagged for a closer look

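In 354 groups of 4 libraries, 31 had 1 library far from the other 3 by Dixon's criterion, and chance flags about 1 group in 20.

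Day 23 replicate 2 stood apart, in CPM, for Hsp22 at 150, Sod2 at 204, mt:CoI at 19114, ND-23 at 523, ND-B17.2 at 227, mRpL41 at 31.1, BomT2 at 204, Drs at 89.5 and FBti0019469 at 1.66. Its list scores stood apart for Toll effectors at 0.47 and for ecdysone and juvenile hormone genes at -0.26. Day 23 replicate 3 stood apart for CecB at 0.676 CPM, AspRS at 89.9 CPM, DptA at 74.8 CPM and Mtk at 72.5 CPM. Day 23 replicate 1 did so for GstD5 at 1.64 CPM, mAcon1 at 2247 CPM, CG11700 at 10.3 CPM, TotA at 702 CPM, TotC at 295 CPM and TotM at 105 CPM.

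At day 47, replicate 2 stood apart for fln at 0.655 CPM, Nc73EF at 2239 CPM and Rel at 447 CPM, and for the lysozyme list score at -0.45. Replicate 1 did so for the accessory gland marker sum at 8.95 CPM, and replicate 3 for the score of IMD antimicrobial peptides at 2.39. Replicate 4 stood apart in 4 list scores: cuticle proteins at -0.45, gustatory and ionotropic receptors at -0.19, CheA and CheB at -0.88 and transposable element copies at 0.35.

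The change from day 23 to day 47 differed between w1118 and Hsp70-null by the interaction test (edgeR, adjusted over all features) for 12 genes of the text. The log2 difference was 5.22 for CecC, 3.52 for Drs, 2.29 for CG42329, 2.08 for lncRNA:CR45361 and 0.75 for Rel. It was -3.75 for ninaD, -3.19 for ND-B8, -3.13 for fln, -2.44 for Cpr62Bc, -2.02 for Nplp3, -1.68 for CG13177 and -0.68 for ND-23.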

How the results depend on the processing

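The count of 1731 was 1812 with RLE, 2373 with DESeq2, 1687 after thinning and 1268 to 1738 without 1 library. It was 577 with the compared groups alone, 87 with glmTreat, 245 without the 3 day 47 libraries high in gut markers and 1075 without day 23 replicate 1 and day 47 replicate 3. Without the filter 1833 passed, 68.7% of them higher against 45.3%, and 60.4% were higher in the fit that left out the 3 libraries. The 23 interaction calls became 37 with RLE, 216 with DESeq2, 62 with at least 10 counts in every library, 14 with the compared groups alone, 9 with glmTreat and 10 without the 2 libraries. Leaving out 1 library gave 6 to 100: 10 without w1118 day 23 replicate 2, 9 without day 47 replicate 4, and in Hsp70-null 100, 10 and 9 without day 23 replicates 1, 3 and 4 and 6 and 11 without day 47 replicates 1 and 2. With a replicate block 1803 and 53 passed, and 494 and 11 with the compared groups alone. In w1118, same-numbered libraries of day 23 and day 47 had correlations of -0.25, 0.13, -0.40 and 0.22. These values differ in sign and show no uniform pairing by number between those groups. They cover no other group, so they cannot decide whether the numbers pair samples elsewhere in the series, which was not tested. Across these ages the highest correlation was 0.67, between day 23 replicate 1 and day 47 replicate 3. These libraries deviated together, and the fit without them, which gave 1075, was not planned in advance. They had 27 and 25 of 39 testis markers at 1 CPM or more. The cause of their correlation was not tested. Without the 3 libraries high in gut markers the log2 fold change turned for TpnC73F (-0.52), Hsp70Aa (0.20), Hsp70Ab (0.0276) and Hsp70Bbb (0.0539). TotM ran from -3.31 to 0.38 without 1 library, turning without day 23 replicate 1, and was 0.60 without that library and day 47 replicate 3. The cause of these changes was not tested. The gut and testis settings that leave out libraries were chosen after seeing the data. A count was found for 14827 to 16217 features at day 23 and 16199 to 16996 at day 47, and after thinning to equal totals for 14710 to 15850 and 15392 to 16158.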
